A study of Rattus norvegicus with 113 samples.

Results

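Fluid percussion injury, a pulse of fluid against the intact dura that deforms the brain beneath, was compared with sham surgery in the rat hippocampus at 24 hr. The comparison was defined by the sample titles, which give 3 arrays of injured hippocampus (TBI) and 2 of sham hippocampus at that interval, 5 of the 113 arrays of the series. The series as a whole followed gene expression in hippocampus and cortex from 24 hr to later intervals on Agilent one-colour arrays. All animals were adult male Sprague-Dawley rats. Both groups were anesthetized with isoflurane and carried a craniotomy with an injury hub over the parasagittal cortex, and the pulse alone distinguished TBI from sham. The labels call the injury moderate and the methods call it severe. The whole hippocampus was dissected by hand and held in RNAlater, so that each array reads all cell types of the tissue together.

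Injury to the hippocampus is known for a fast response of its glia. Astrocytes enlarge and express intermediate filaments and acute-phase proteins, microglia release cytokines, and chemokines draw neutrophils and monocytes from the blood. The pyramidal and granule neurons and the interneurons between them depend on voltage-gated channels for firing, and cells that re-enter the cycle in the days after injury are mostly glia and vascular cells.

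The arrays carried 30367 probes, of which 48.3% to 57.3% were well above background in each array and 0 were saturated. Replicate arrays correlated at 0.986 in sham and at 0.985 to 0.990 in TBI, whereas sham and TBI arrays correlated at 0.950 to 0.966. Sham arrays lay on slide 1 and TBI arrays on slide 5, scanned on different days, and an effect of the slide cannot be told apart from one of the injury here. The TBI slide also held the 4 hippocampal arrays of naive, unoperated rats of the 3 month interval, and the value against these is given below as a within-slide reference. No naive array of the 24 hr interval was analysed here. Excitatory, interneuron and hippocampal field genes such as Slc17a7, Gad1 and Neurod6 were above background in all 5 arrays. Dcx and Prox1, both used as markers of the dentate gyrus, were above background in 0 of the 5.

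Markers of tissue next to the hippocampus differed within groups. The summed level of the 6 tested choroid plexus and ependyma genes, given here as log2 relative to the array median, was 5.30 and 10.2 in sham and 5.99, 6.64 and 9.92 in TBI. Transthyretin (Ttr), the main secreted protein of the choroid plexus, had levels of 4.46 and 10.16 in sham and of 4.91, 6.14 and 9.88 in TBI. Sham replicate 2 and TBI replicate 3 were therefore the high arrays of both groups. The summed level of 12 meningeal and fibroblast genes was also highest in these arrays, at 9.58 and 9.72, against 8.49 to 9.02 in the other 3. None of the genes on either list was called in TBI against sham. With all 5 arrays 2306 probes were called, as given below, against 676 without sham replicate 1, 745 without sham replicate 2, 1344 without TBI replicate 1, 1185 without TBI replicate 2 and 2307 without TBI replicate 3.

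Hippocampal expression at 24 hr differed from sham in both directions, with the larger changes upwards. Of 16224 probes tested with limma, 2306 (14.2%) had an adjusted p under 0.05 and are referred to as called, 963 (5.94%) higher and 1343 (8.28%) lower in TBI. Read as 1 probe per gene, 674 of 9728 named genes were higher (6.93%) and 530 were lower (5.45%). The median difference over these genes was 0.01 on the log2 scale. Among the higher genes, 404 differed by at least 2-fold, 157 by at least 4-fold and 18 by at least 16-fold. Among the lower genes the corresponding counts were 215, 17 and 0. In all 2306 called probes the TBI arrays lay on 1 side of both sham arrays, which was also the case for 50.3% of all tested probes.

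**Figure D1:**
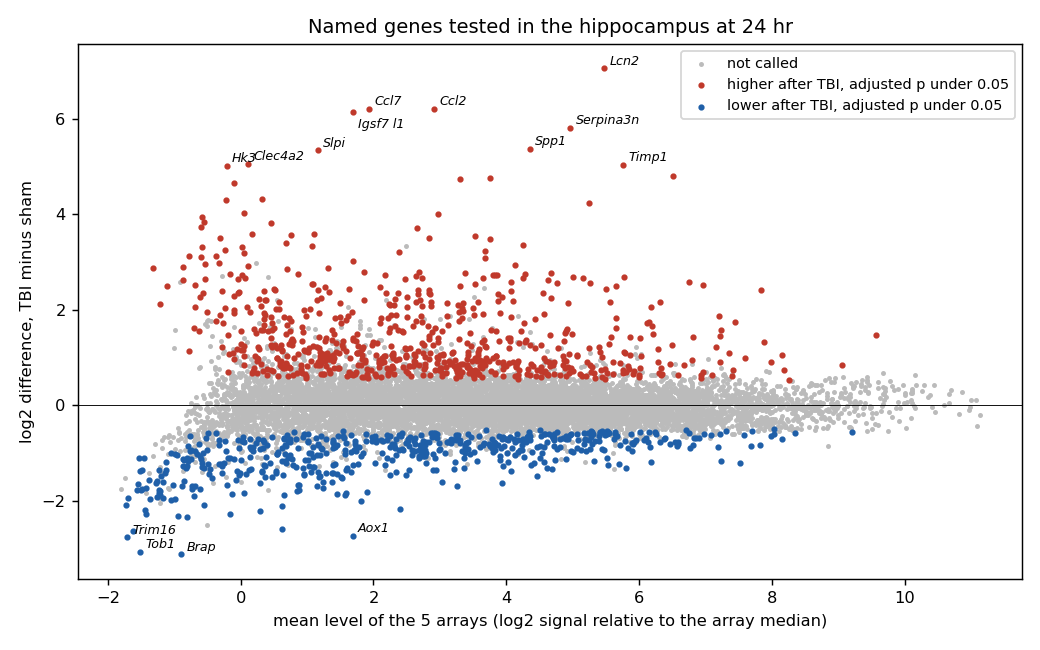
Log2 difference of TBI minus sham (vertical axis) against the mean level of the 5 arrays, as log2 signal relative to the array median (horizontal axis), for the 9728 named genes, 1 point each. Red points are the 674 genes called higher, blue points the 530 called lower, and the rises reach 7.06 while no fall reaches 16-fold.

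The split between directions depended on the background correction. With normexp in place of the scanner's processed signal, 2348 probes were called higher and 1060 lower, so that 68.9% of calls were upwards against 41.8% with processed signals. Unnamed probes carried many of the falls, with 748 of 5027 unnamed probes lower (14.9%) against 595 of 11197 named ones (5.31%). The arrays of both groups are labelled as separate samples, and p-values measure the spread between these few arrays.

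The largest rise was in lipocalin 2 (Lcn2), an iron-siderophore binding protein of reactive astrocytes and neutrophils. Its level was -0.86 and 3.34 in the sham arrays and 9.04, 8.95 and 6.90 in the TBI arrays. All TBI arrays lay far above both sham arrays, although sham replicate 2 lay well above sham replicate 1. The difference was 7.06 (SE 1.25, adjusted p = 0.0177), a 133-fold rise. Lcn2 was well above background in only 1 of the sham arrays, and the naive arrays lay between -0.13 and 0.63.

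Several other large rises were in secreted protease inhibitors and matrix proteins. Timp1, an inhibitor of matrix metalloproteinases, had levels of 2.14 and 3.31 in sham and of 7.88, 7.78 and 7.65 in TBI, and rose by 5.04 (SE 0.33, adjusted p = 0.0026). Its TBI arrays were nearly equal. Serpina3n, a serine protease inhibitor of reactive astrocytes, had sham levels of 0.35 and 2.61 and TBI levels of 7.06, 9.53 and 5.28, a rise of 5.81 (SE 1.24, adjusted p = 0.0296). Osteopontin (Spp1) had levels of -1.01 and 3.27 in sham and of 7.46, 6.58 and 5.47 in TBI, with a difference of 5.37 (SE 1.22, adjusted p = 0.0352). As with Lcn2, sham replicate 2 was the higher sham array for both genes, and the groups did not overlap. Slpi, the secretory leukocyte protease inhibitor, was below background in both sham arrays and rose at least 20.6-fold, where the bound sets the TBI mean against the lowest signal well above background in each sham array.

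The other genes among the 15 largest rises were Ccl2, Ccl7, Cxcl13 and Cxcl1, which are chemokines, the small heat shock protein Hspb1, the imprinted non-coding RNA H19, the tubulin Tubb6, the C-type lectin receptor Clec4a2, the hexokinase Hk3, and Igsf7 l1. H19 had levels of -0.16 and 1.96 in sham and of 5.29, 6.28 and 5.43 in TBI, a rise of 4.77 (SE 0.62, adjusted p = 0.00731). Tubb6 rose by 4.75 (SE 0.34, adjusted p = 0.00267), from 0.09 and 0.82 to 5.52, 5.44 and 4.64. For both genes every TBI array was clear of every sham array. Clec4a2, Hk3 and Igsf7 l1 were below background in both sham arrays and were at least 9.21-fold, 7.24-fold and 37-fold higher in TBI. In 510 of the 674 higher genes (75.7%), TBI replicate 3 was the lowest of the TBI arrays, and in 445 of them (66.0%) sham replicate 2 was above sham replicate 1, by a median of 0.15 over all 674. Spp1, Bcl3, Vav1, Mmp9, Trh, Gfra1, Lyve1 and Lef1 were also well above background in 1 of the sham arrays.

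**Figure D2:**
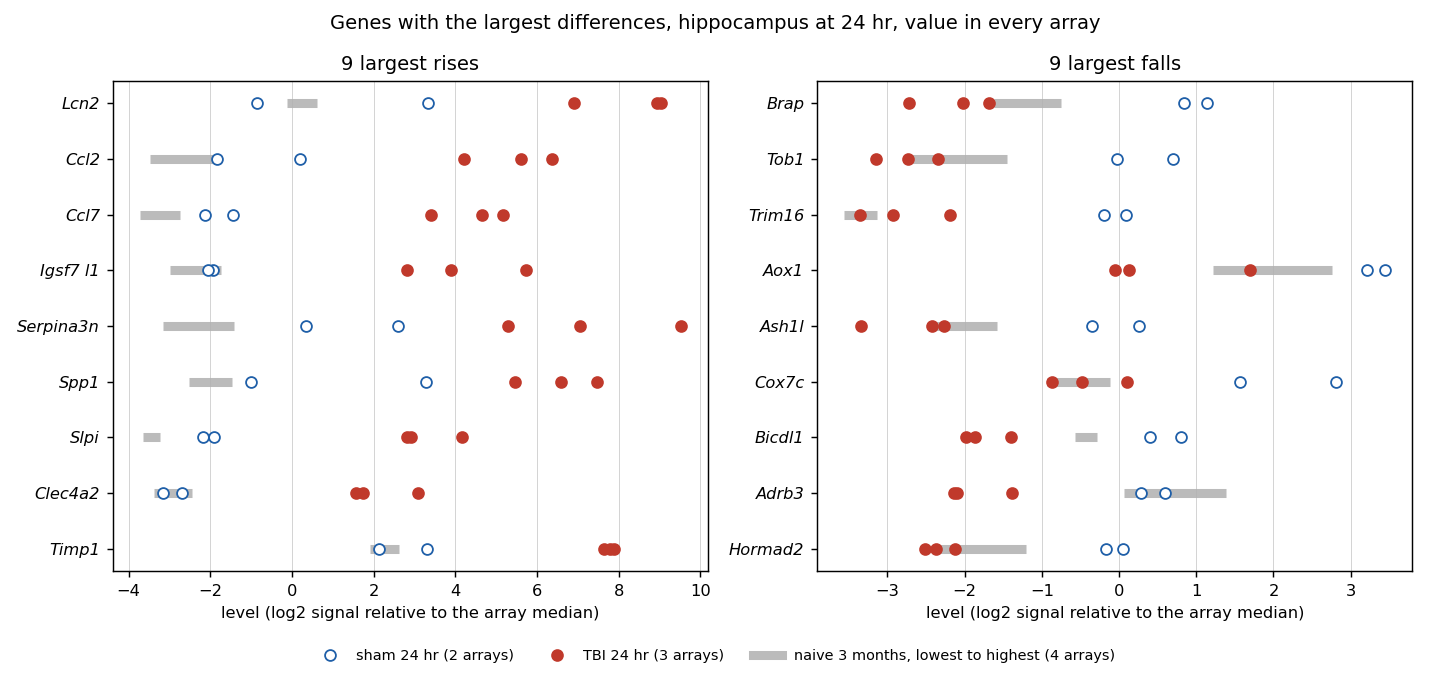
Level in every array, as log2 signal relative to the array median, for the 9 largest rises (left) and the 9 largest falls (right). Open blue circles are the 2 sham arrays, filled red circles the 3 TBI arrays, and grey bars span the 4 naive arrays of 3 months on the slide of the TBI arrays; the rises of Lcn2, Ccl2 and Timp1 clear the grey bars, whereas the TBI arrays of Cox7c lie within or beside them.

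Most tested reactive astrocyte genes rose. Of 28 tested genes on this list, 18 rose and 1 fell, and the median difference was 2.03, against 0.01 over all named genes. Glial fibrillary acidic protein (Gfap), the astrocyte intermediate filament, had levels of 5.70 and 6.45 in sham and of 7.58, 8.32 and 7.95 in TBI, a rise of 1.87 (SE 0.30, adjusted p = 0.0129). Vimentin (Vim) and nestin (Nes), filaments of immature and reactive glia, rose by 3.08 (adjusted p = 0.00673) and by 2.74 (adjusted p = 0.00483). The hyaluronan receptor Cd44 rose by 2.77 (SE 0.19, adjusted p = 0.0026), from 2.83 and 3.20 to 5.74, 6.02 and 5.61. The calcium-binding proteins S100a6 and S100a10 rose by 2.66 and by 2.41, and the membrane protein Emp1 by 2.65. Leaving out 1 array in turn left 13 to 18 called members of the list.

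Other astrocyte genes were lower or not called. The gap junction protein Gja1 fell by 0.63 (SE 0.14, adjusted p = 0.0352), from 7.36 and 7.57 in sham to 6.75, 6.88 and 6.88 in TBI. The water channel Aqp4, the glutamate transporters Slc1a2 and Slc1a3, glutamine synthetase (Glul) and Aldh1l1 were not called, with differences of -0.07, 0.19, -0.24, -0.44 and -0.69. In bulk tissue, more or fewer cells of a type and more or less RNA per cell cannot be told apart.

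Hspb1 stood out among the stress proteins. This small chaperone of astrocytes and vessels had levels of 2.81 and 4.44 in sham and of 8.35, 9.01 and 7.90 in TBI, a rise of 4.79 (SE 0.52, adjusted p = 0.00499). Of 21 tested heat shock proteins and co-chaperones, 3 rose and 2 fell, with a list median of 0.20. The small chaperone Hspb8 rose by 1.58 and the Hsp70 family member Hspa2 by 1.30, while Hspb2 and Dnajb6 fell by 1.06 and by 0.73. The stress-inducible Hsp90aa1, Hsph1 and Hspd1 were not called, at 0.07, 0.24 and 0.40. Of 24 genes for oxidative stress, metallothioneins and iron, 3 rose and 0 fell (median 0.20), namely heme oxygenase Hmox1 by 2.34 (adjusted p = 0.0196), Mt1 by 1.75 (adjusted p = 0.0224) and Mt2A by 1.48 (adjusted p = 0.0444). This list had 8 calls when scaled to the 75th percentile or in the deposited table, 6 with quantile normalization and 10 with normexp. Heme oxygenase breaks down heme and metallothioneins bind zinc.

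Of 17 tested chemokines, which recruit blood leukocytes, and their receptors, 9 rose and 0 fell, with a median of 2.04. Of these 17, 5 were below background in both sham arrays and passed the filter through the TBI arrays, and among the 9 above background in all 5 arrays 2 were called. Ccl2, the main monocyte attractant, had levels of -1.83 and 0.19 in sham and of 6.38, 5.60 and 4.21 in TBI, a rise of 6.22 (SE 0.77, adjusted p = 0.0066), with 1 sham array above background. Ccl7, which acts on the same receptor, was below background in both sham arrays (-2.14 and -1.45) and at 5.17, 4.66 and 3.40 in TBI, at least 44.4-fold higher (adjusted p = 0.00309). Groups were widely separated for both genes, and TBI replicate 3 was the lowest TBI array in each. The neutrophil attractant Cxcl1 and the B cell attractant Cxcl13 were at least 8.69-fold and 7.11-fold higher, and the macrophage attractants Ccl3 and Ccl4 at least 5.29-fold and 5.21-fold. Cxcl10 (1.67, adjusted p = 0.13), the homeostatic Cxcl12 (-0.02) and the neuronal Cx3cl1 (-0.45) with its microglial receptor Cx3cr1 (0.20) were not called. Cxcr2 and Ccr2, the receptors of neutrophils and monocytes, were above background in 0 arrays. With TBI replicate 1 left out 5 members were called.

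Genes of interleukin-1, TNF and Toll-like receptor signalling rose in 13 of 27 tested cases and fell in 0, with a median of 1.02. Below background in both sham arrays were 4 of the 27, which passed the filter only through the TBI arrays. Interleukin 1β (Il1b) was below background in sham, at -1.84 and -1.77, and at 1.65, 0.75 and 0.44 in TBI, at least 4.02-fold higher (adjusted p = 0.00666). Its natural antagonists rose as well, the decoy receptor Il1r2 at least 6.6-fold and the receptor antagonist Il1rn at least 7.1-fold. All 3 were above background in each TBI array and in 0 sham arrays. Tnfrsf12a, the receptor of the TNF family member TWEAK, rose by 3.54 (SE 0.30, adjusted p = 0.00309), and the lipopolysaccharide co-receptor Cd14 by 3.48 (SE 0.57, adjusted p = 0.0145). Tnf itself had overlapping groups, with levels of -0.03 and 1.31 in sham and of 1.81, 2.52 and 1.05 in TBI, and did not pass the test (difference 1.15, SE 0.52, adjusted p = 0.189). Il6, Il10 and Nlrp3 were above background in 0 arrays. Without sham replicate 1 the called members numbered 6.

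Acute-phase and complement genes showed the same direction. Of 18 tested IL-6 family, acute phase and Stat3 genes, 11 rose and 0 fell (median 0.94), including Lcn2 and Serpina3n, which are also on the astrocyte list. The nuclear IκB protein Bcl3 rose by 2.87 (SE 0.46, adjusted p = 0.0133) and ceruloplasmin (Cp), a copper-binding ferroxidase, by 2.19 (adjusted p = 0.00545). Stat3, the transcription factor downstream of IL-6 receptors, rose by 0.80 (SE 0.20, adjusted p = 0.0448). Of 19 complement genes, 8 rose and 0 fell (median 0.79). Complement C3, the central component of the cascade, had levels of 3.27 and 4.01 in sham and of 5.95, 6.08 and 5.32 in TBI, a rise of 2.14 (SE 0.31, adjusted p = 0.00989). The proteases C1s and C1r of the classical pathway rose by 2.42 and 2.09, their inhibitor Serping1 by 2.69, the alternative pathway protease Cfb by 1.75 and C2 by 1.14. The recognition subunits C1qa, C1qb and C1qc, made by microglia, were not called, at 0.41, 0.72 and 1.22. Without sham replicate 1, 3 acute phase and 1 complement gene were called, and without sham replicate 2 these counts were 5 and 6. The acute phase list gave 6 calls without either TBI replicate 1 or TBI replicate 2.

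Of 30 tested microglia and macrophage genes, 14 rose and 0 fell, with a median of 1.07. Galectin 3 (Lgals3), a lectin of activated phagocytes, had levels of 2.26 and 3.16 in sham and of 7.41, 6.97 and 6.45 in TBI, a rise of 4.23 (SE 0.36, adjusted p = 0.00309). The scavenger receptor Msr1 was at least 4.14-fold higher, Gpnmb rose by 2.57, and the Fc receptors Fcgr3a, Fcgr1a and Fcgr2b rose by 2.73, 1.91 and 1.55. The purinergic receptor P2ry12 (-0.12), Tmem119 (-0.72) and the survival receptor Csf1r (0.63) were not called. The lysosomal marker Cd68 (1.67, adjusted p = 0.0646) also missed the threshold. Summed levels of the list were at most 11.52 in sham and 11.96, 11.83 and 11.61 in TBI. Called members numbered 4 without sham replicate 1, 9 without sham replicate 2 and 8 without TBI replicate 2.

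Blood leukocyte markers were partly present. Of 6 tested neutrophil genes, 2 rose and 0 fell, with a median of 1.90, and their summed level was 3.62 and 4.25 in sham and 6.42, 7.02 and 5.2 in TBI. S100a9, a subunit of the calprotectin dimer of neutrophils and monocytes, had levels of 0.50 and 0.65 in sham and of 4.82, 5.90 and 2.99 in TBI, a rise of 4.0 (SE 0.76, adjusted p = 0.0214). Its partner S100a8 (3.33, adjusted p = 0.0502) narrowly missed the threshold, although its groups did not overlap. The granule genes Camp, Elane, Ltf and Mmp8 were above background in 0 arrays, whereas Prtn3 was above it in 3 arrays but did not pass the filter. T cell and B cell genes were mostly below background, with 4 of 20 tested and 0 called (median -0.32), and 5 tested blood genes gave 0 calls (median -0.23). Among 14 leukocyte adhesion genes 5 rose and 0 fell (median 0.94), moesin (Msn) at least 3.82-fold, the exchange factor Vav1 by 2.08 (SE 0.42, adjusted p = 0.0256) and the small GTPase Rap1b by 0.98 (SE 0.17, adjusted p = 0.0179). The β2 integrin Itgb2 (0.79, adjusted p = 0.116) and the oxidase subunit Ncf1 (0.97, adjusted p = 0.0974) were not called.

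Antigen presentation and interferon genes rose less uniformly. Of 29 tested interferon response genes, 8 rose and 1 fell, with a median of 0.86. The guanylate-binding protein Gbp2 rose by 2.66 (SE 0.39, adjusted p = 0.0104), from 2.11 and 3.22 to 5.70, 4.82 and 5.43, and the viral tether Bst2 by 2.16 (SE 0.21, adjusted p = 0.0042). The immunoproteasome subunits Psmb8 and Psmb9 rose by 1.90 and 1.84. The interferon-induced GTPase Igtp fell by 1.17 (SE 0.15, adjusted p = 0.0066), from 8.05 and 7.83 to 6.83, 6.81 and 6.67. Isg15 (2.26, adjusted p = 0.0589) and Mx1 (0.10) were not called, and without sham replicate 1 the list had 3 calls. Of 6 MHC class II genes 2 rose, RT1-Da by 2.72 (SE 0.41, adjusted p = 0.0116) and the invariant chain Cd74 by 1.92 (SE 0.45, adjusted p = 0.0373), and 0 fell (median 1.23).

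**Figure D3:**
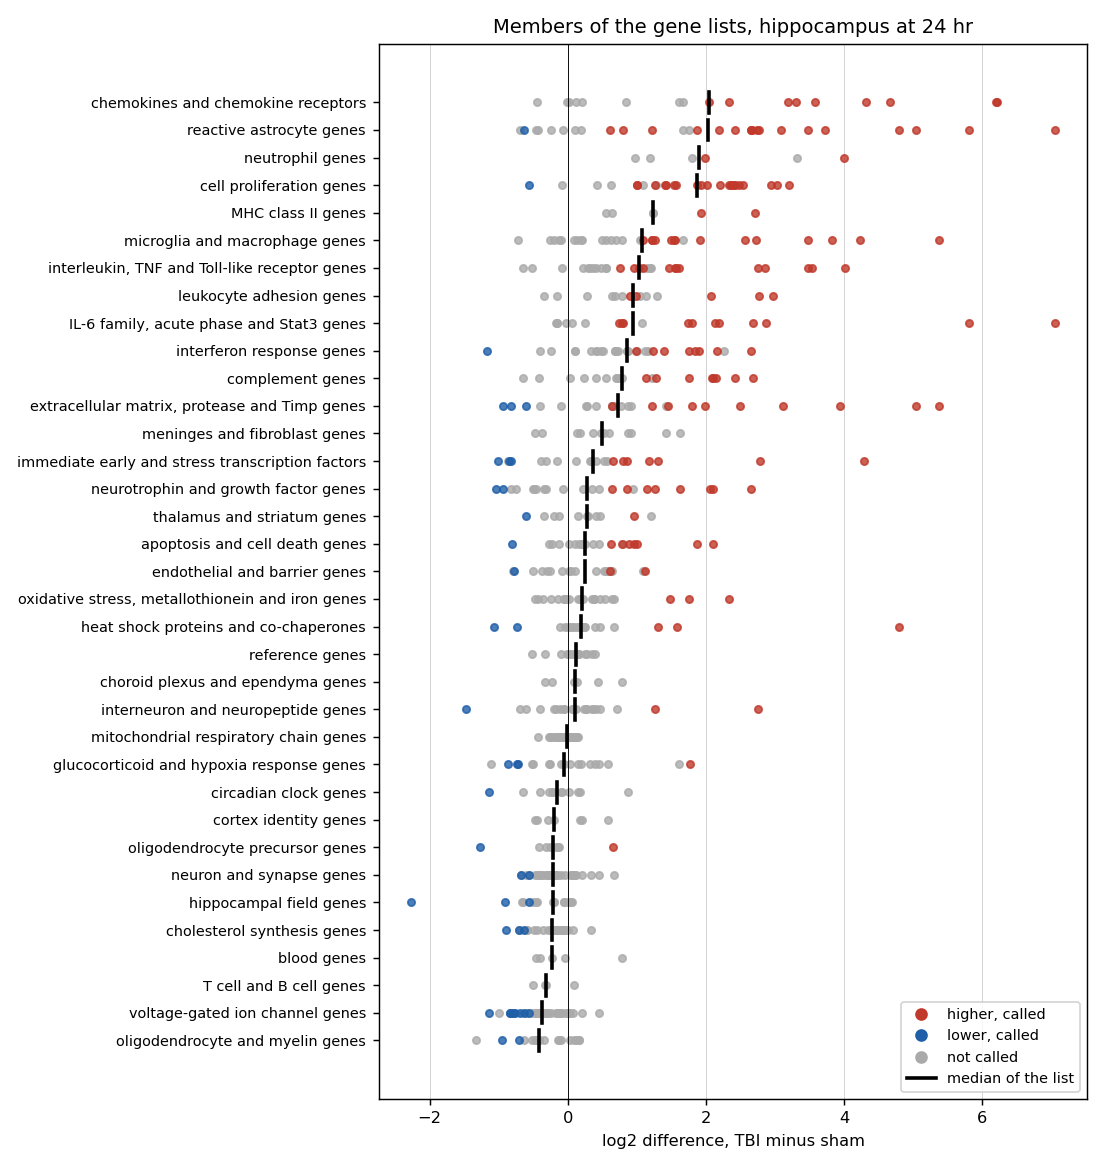
Log2 difference of TBI minus sham (horizontal axis) for each tested member of 35 gene lists (rows, ordered by median). Red points are members called higher, blue points members called lower, grey points members not called, and black bars the list medians, which run from 2.04 for chemokines to -0.41 for oligodendrocyte genes.

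Cell cycle genes rose as a group. Of 27 tested proliferation genes, 21 rose and 1 fell, with a median of 1.88, the highest share of called members among the 35 lists. The 21 included Gadd45a, Gadd45b and Gadd45g, which are stress genes and not markers of dividing cells. Below background in both sham arrays were 4 of the 27, which passed the filter only through the TBI arrays. With bounds in place of their differences the median was 1.71. Cdk1, the kinase that drives entry into mitosis, had levels of -0.57 and 1.49 in sham and of 3.99, 3.95 and 3.05 in TBI, a rise of 3.20 (SE 0.61, adjusted p = 0.0209). The proliferation marker Mki67 had sham levels of -1.06 and 0.79 and TBI levels of 3.26, 3.15 and 2.29, a rise of 3.03 (SE 0.56, adjusted p = 0.02), with 1 sham array above background and all 3 of its probes called. In both genes sham replicate 2 was nearer to the TBI arrays than sham replicate 1. Replication genes rose too, the helicase subunits Mcm3, Mcm6 and Mcm2 (Mcm6 at least 3.47-fold, the others by 2.36 and 1.54), the ribonucleotide reductase subunit Rrm2 by 2.33 and the clamp Pcna by 1.00. Mitotic genes included cyclin B1 (Ccnb1, at least 5.29-fold), the checkpoint kinase Bub1b (at least 3.27-fold) and cyclin A2 (Ccna2, 2.47). The count depended on single arrays, with 5 called members without sham replicate 1, 15 without sham replicate 2, 7 without TBI replicate 1, 8 without TBI replicate 2 and 22 without TBI replicate 3.

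Damage and arrest genes of the same list moved in different directions. Gadd45a, a stress gene induced by DNA damage, rose by 2.54 (SE 0.24, adjusted p = 0.00373), from 1.90 and 2.12 to 4.32, 4.99 and 4.35. Gadd45b and Gadd45g of the same family were also called higher. The cell cycle inhibitor Cdkn1a fell by 0.56 (SE 0.14, adjusted p = 0.0461), from 5.86 and 5.88 to 5.37, 5.38 and 5.18. The cyclins and kinase of the G1 phase, Ccnd1 (1.28), Ccnd2 (-0.09) and Cdk4 (0.62), were not called. Of 21 apoptosis genes, 7 rose and 1 fell, with a median of 0.25, and 2 passed the filter only through the TBI arrays. The survival gene Bcl2a1 was at least 1.62-fold higher and the necroptosis kinase Ripk3 rose by 1.88 (SE 0.47, adjusted p = 0.0465), while Bax (0.20) and Bbc3 (0.02) were not called. With the replicate number as a block 0 apoptosis genes were called.

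The promoters of the proliferation genes are shown because so many members of that list rose together. RefSeq promoters (GRCr8, 250 bases before the start of the gene) were available for 17 of the 21 risen members, and 14 of these held the letters CCAAT on either strand, against 34.3% of 27457 promoters. Among the not called members with a promoter, 1 of 3 held it. The stress genes Gadd45a, Gadd45b and Gadd45g were among the 14. Capitals mark CCAAT, or ATTGG where the match is on the opposite strand, in the promoters of Cdk1 at chr20:19265043-19265292, plus strand, and Mki67 at chr1:199952594-199952843, minus strand, both printed 5′ to 3′ along the gene.
Cdk1: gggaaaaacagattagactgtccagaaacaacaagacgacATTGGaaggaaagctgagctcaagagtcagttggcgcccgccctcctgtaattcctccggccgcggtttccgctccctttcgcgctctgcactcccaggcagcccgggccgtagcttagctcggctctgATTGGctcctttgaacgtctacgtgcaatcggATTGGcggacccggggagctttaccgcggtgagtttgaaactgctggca
Mki67: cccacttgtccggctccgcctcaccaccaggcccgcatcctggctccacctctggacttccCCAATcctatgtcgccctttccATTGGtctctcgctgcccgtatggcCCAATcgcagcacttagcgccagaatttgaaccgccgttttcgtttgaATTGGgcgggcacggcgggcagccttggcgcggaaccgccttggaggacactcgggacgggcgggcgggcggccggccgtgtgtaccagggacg
The Cdk1 promoter held 3 matches and that of Mki67 held 4, the nearest 45 and 90 bases before the start. The heat shock element core GAANNTTC, on either strand, was found for 2 of 3 risen heat shock genes (Hspb1 and Hspb8) and for 7 of 13 not called, against 7.02% of all promoters. In the promoter of Hspb1, at chr12:26432302-26432551 on the minus strand, its 2 matches are in capitals.
Hspb1: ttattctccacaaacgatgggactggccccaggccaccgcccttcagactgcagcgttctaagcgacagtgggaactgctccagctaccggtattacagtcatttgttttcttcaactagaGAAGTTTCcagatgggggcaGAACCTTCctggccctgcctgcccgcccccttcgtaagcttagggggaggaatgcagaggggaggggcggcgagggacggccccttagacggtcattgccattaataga
The core GAAANNGAA of interferon elements was found for 4 of 8 risen and 10 of 14 not called interferon genes (7.99% of all promoters), GGANTTTCC of NF-kB sites for 1 of 6 and 1 of 6 chemokine genes (1.06%), and TTCNNNGAA of Stat sites for 1 of 8 and 0 of 4 acute phase genes (7.52%). These pairs of motif and list were chosen after the promoters had been looked at, and a match describes letters in a window and not a bound site.

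Matrix and protease genes rose in 10 of 26 tested cases and fell in 3 (median 0.72). Below background in both sham arrays were 3 of the 26, which passed the filter only through the TBI arrays. Besides Spp1 and Timp1, the metalloproteinase Mmp19 was at least 2.88-fold higher, and Adamts1 rose by 2.50 and Mmp9 by 1.99 (SE 0.38, adjusted p = 0.022). The perineuronal net protein Bcan fell by 0.83 (adjusted p = 0.0184), the brain inhibitor Timp4 by 0.94 (adjusted p = 0.0237) and Mmp15 by 0.60. Fibrillar collagens Col1a1 (0.92) and Col3a1 (1.42) were not called. The 12 tested meninges and fibroblast genes had a median of 0.50, and what part these markers, highest in sham replicate 2 and TBI replicate 3, have in the matrix values was not tested. Leaving out 1 array gave 5 to 10 called members, with 5 without sham replicate 1, 6 without sham replicate 2 and 8 without TBI replicate 1.

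Few endothelial genes were called, with 2 of 20 higher and 1 lower (median 0.25), where 6.93% of all named genes were higher and 5.45% lower. The growth factor Pgf rose by 0.61 (adjusted p = 0.0351), and the receptor Flt4 fell by 0.78 (adjusted p = 0.0206). Claudin 5 (Cldn5, 0.63), Pecam1 (0.64) and occludin (Ocln, -0.79) were not called. Of 22 neurotrophin and growth factor genes, 8 rose and 2 fell (median 0.28). The axon growth gene Sprr1a was at least 4.25-fold higher, the EGF receptor ligand Hbegf rose by 2.10, the insulin-like growth factor carrier Igfbp2 by 2.06 (SE 0.25, adjusted p = 0.00619), and the GDNF receptor Gfra1 by 1.63. Fgf1 fell by 1.04 (adjusted p = 0.0113). Bdnf had levels of 1.59 and 1.15 in sham and of 1.85, 1.52 and 1.79 in TBI and was not called (0.35, SE 0.19, adjusted p = 0.263), with its receptor Ntrk2 at -0.51.

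Immediate early genes moved both ways, with 7 of 20 higher and 3 lower (median 0.37). Fosl1, an AP-1 transcription factor, was at least 5.9-fold higher, and the stress factor Atf3 rose by 2.78 (SE 0.24, adjusted p = 0.00324), from 0.06 and 0.31 to 2.92, 3.38 and 2.61. Fos rose by 1.31 and Jun by 0.66. The transcription factors Egr1, Nr4a1 and Nr4a3 fell, Egr1 by 1.00 (SE 0.21, adjusted p = 0.0286), Nr4a1 by 0.83 (SE 0.17, adjusted p = 0.026) and Nr4a3 by 0.86 (adjusted p = 0.0352). Nr4a1 had levels of 4.71 and 4.75 in sham and of 4.15, 3.81 and 3.75 in TBI. Arc, which marks active synapses, had a difference of -0.86 that missed the threshold (adjusted p = 0.0659).

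Voltage-gated ion channel genes were the list with most falls. Of 39 tested, 8 fell and 0 rose, with a median of -0.38. The T-type calcium channel Cacna1i had levels of 4.54 and 4.65 in sham and of 3.62, 3.45 and 3.27 in TBI, a fall of 1.15 (SE 0.16, adjusted p = 0.00845), and both of its probes were called. The sodium channel subunit Scn4b fell by 0.84 (adjusted p = 0.0394), from 4.15 and 4.52 to 3.37, 3.76 and 3.34, and the potassium channel subunit Kcnab1 by 0.83 (adjusted p = 0.0226), from 6.21 and 6.20 to 5.15, 5.50 and 5.47. In these 3 genes all TBI arrays were below both sham arrays. The L-type channel Cacna1c, the N-type channel Cacna1b, the sodium channels Scn8a and Scn1a and the AMPA receptor partner Cacng2 fell by 0.79, 0.76, 0.70, 0.64 and 0.57. The M-current channel Kcnq3 had a difference of -1.0 that was not called (adjusted p = 0.218). Called members numbered 1 without sham replicate 1, 0 without sham replicate 2, 2 without either TBI replicate 1 or TBI replicate 2, and 6 without TBI replicate 3, and 0 with the replicate number as a block.

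**Figure D4:**
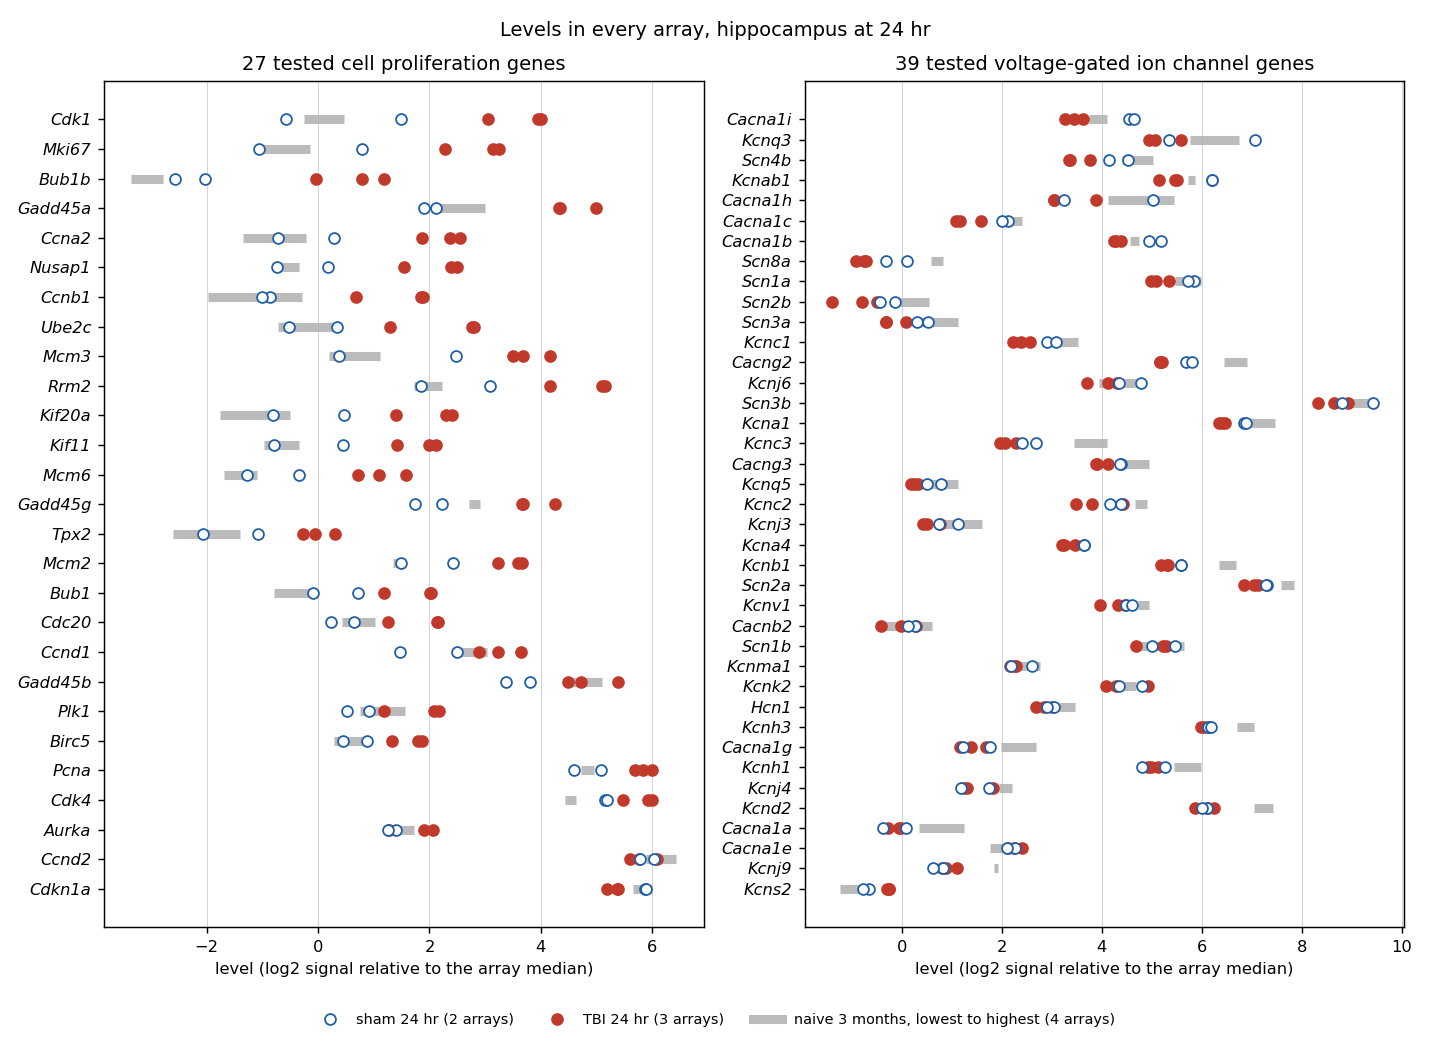
Level in every array, as log2 signal relative to the array median, for the 27 tested proliferation genes (left) and the 39 tested voltage-gated channel genes (right). Open blue circles are sham arrays, filled red circles TBI arrays and grey bars the span of 4 naive arrays of 3 months; 21 genes on the left rose and 8 on the right fell.

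Few other neuronal genes were called. Of 41 neuron and synapse genes 0 rose and 2 fell (median -0.22), the synaptic vesicle calcium sensor Syt1 by 0.68 (adjusted p = 0.0321) and the NMDA receptor subunit Grin2c by 0.56 (adjusted p = 0.0368). That share is near the 5.45% lower among all named genes, and 0 members were called with the replicate number as a block, with normexp or with all 17 arrays of the design in the fit. Of 17 hippocampal field genes 3 fell and 0 rose (median -0.22). Among them was the developmental transcription factor Lhx2, which fell by 0.57 (adjusted p = 0.0408), from 6.55 and 6.42 to 6.00, 5.87 and 5.88. Calb1 (-0.06), Wfs1 (0.05) and Neurod6 (-0.20), which mark dentate or CA1 neurons, were not called.

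Of 22 interneuron and neuropeptide genes 2 rose and 1 fell (median 0.10), near the 6.93% higher and 5.45% lower among all named genes. Somatostatin (Sst), the peptide of dendrite-targeting interneurons, had levels of 5.48 and 5.22 in sham and of 3.46, 4.14 and 4.03 in TBI, a fall of 1.48 (SE 0.24, adjusted p = 0.013). Other interneuron markers were not called, with Pvalb at -0.20, Npy at 0.24, Vip at 0.08 and Gad1 at -0.22. The peptides thyrotropin-releasing hormone (Trh) and galanin (Gal) rose by 2.75 (SE 0.52, adjusted p = 0.0206) and by 1.27 (SE 0.31, adjusted p = 0.0431). The dopamine receptor Drd2 was not called (-0.13, adjusted p = 0.831), nor was Creb5 (-0.82, adjusted p = 0.215).

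Oligodendrocyte lineage genes were lower in a few cases. Of 20 oligodendrocyte genes 2 fell and 0 rose (median -0.41), the myelin proteolipid Mal by 0.95 (SE 0.16, adjusted p = 0.0164) and the cytoskeletal protein Ermn by 0.70 (SE 0.14, adjusted p = 0.0244). Over all named genes 5.45% were lower, and with normexp 1 of these 20 genes was called. Of 8 precursor genes 1 rose and 1 fell (median -0.22). Gpr17, a receptor of precursors about to differentiate, had levels of 0.44 and 0.51 in sham and of -0.74, -0.61 and -1.03 in TBI, a fall of 1.27 (SE 0.17, adjusted p = 0.00752), with 1 TBI array above background, and Ptprz1 rose by 0.65 (SE 0.13, adjusted p = 0.0235).

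The 34 mitochondrial respiratory chain genes gave 0 calls (median -0.02), as did 14 reference genes (median 0.12), 7 cortex identity genes (median -0.20) and 6 choroid plexus genes (median 0.11). In 10 of the 14 reference genes the TBI arrays lay on 1 side of both sham arrays, against 50.3% of all tested probes. The reference list had 1 call at the 75th percentile, 2 with quantile normalization and 3 with normexp. Of 24 cholesterol synthesis genes 3 fell, among them Fdft1 and Scd by 0.71 and 0.90, and 0 rose (median -0.23). Of 19 glucocorticoid and hypoxia genes 3 fell and 1 rose (median -0.06), where 5.45% of all named genes were lower. With the replicate number as a block 0 and 2 members of these lists were called. The glucocorticoid-induced Tsc22d3 fell by 0.87 (SE 0.13, adjusted p = 0.0111), the receptor Nr3c1 by 0.74 (adjusted p = 0.0369) and its co-chaperone Fkbp5 by 0.72 (adjusted p = 0.0419), while the hyaluronan receptor Lyve1 rose by 1.77. Of 12 clock genes 1 fell, Per3, by 1.14 (SE 0.14, adjusted p = 0.00649), with a list median of -0.16. Of 11 thalamus and striatum genes Lef1 rose by 0.96 and Pde10a fell by 0.60, with a median of 0.28. Over all named genes 6.93% were higher and 5.45% lower, so that single calls in lists as short as these 2 say little about the list.

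Of the 15 genes with the largest falls, 8 were below background in all TBI arrays. Brap, a cytoplasmic ubiquitin ligase, had levels of 0.84 and 1.13 in sham and of -2.02, -1.69 and -2.72 in TBI and was at least 3.8-fold lower in TBI (adjusted p = 0.00416). The antiproliferative gene Tob1 was at least 2.42-fold lower, Trim16 and the histone methyltransferase Ash1l at least 1.85-fold and 1.86-fold, and the cytochrome oxidase subunit Cox7c fell by 2.60 (SE 0.42, adjusted p = 0.0138). Another Trim16 probe, which did not pass the filter here, had a hippocampal difference of 0.45 in the fit with the cortex. Aox1, an aldehyde oxidase, had levels of 3.21 and 3.45 in sham and of -0.05, 1.70 and 0.13 in TBI, a fall of 2.74 (SE 0.51, adjusted p = 0.0204). Cox6c-ps1, above background in all 5 arrays, had levels of 4.06 and 3.36 in sham and of 1.23, 1.58 and 1.78 in TBI. Aox1, Cox7c, Ermn and Syt1 were well above background in 2 of the TBI arrays, and Egr1 in 1. Of 24 tested olfactory receptor genes, whose probes were chosen for counting after their values were seen, 19 fell and 1 rose, with a median of -1.42.

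Against the naive arrays of 3 months on the TBI slide, an alternative added after the data were seen, TBI could be read within 1 slide. Both comparisons use the same 3 TBI arrays, and the naive rats differ from sham in surgery and interval. There, 15.9% of named genes were higher and 24.9% lower. The 674 genes higher than sham had a median size of difference of 1.16 against sham and a median difference of 1.26 against naive, and 554 of them were called higher there. The 530 lower genes had a median size of 0.914 against sham and a median difference of -0.60 against naive, and 331 were called lower there. Timp1 differed by 5.50, Ccl2 by 7.90, Lcn2 by 8.02, Cdk1 by 3.45 and Gfap by 3.47. By list, 23 of 28 reactive astrocyte genes were higher (median 2.39), as were 13 of 17 chemokine genes (2.22), 21 of 27 proliferation genes (2.09) and 21 of 30 microglial genes (1.65). All 6 neutrophil genes (2.98) and all 5 blood genes (0.92) were also called higher than naive, whereas 0 blood genes were called against sham.

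Among the falls, 30 of 39 channel genes (median -0.70), 27 of 41 neuron and synapse genes (-0.67), 10 of 17 hippocampal field genes (-0.54) and 10 of 20 oligodendrocyte genes (-0.63) were lower than naive. Sst had a difference of -1.13 (adjusted p = 0.0019), Cacna1i had -0.51 and Nr4a1 -1.48. Cox7c and Gsta5, each above background in 2 TBI arrays, had differences of 0.04 and 0.01 here, and Cox6c-ps1 had -0.03. The 24 olfactory receptor genes had a median of -0.53 with 10 lower and 1 higher. The 3 cholesterol genes and Per3 gave 0 calls against naive. Of the 3 fallen glucocorticoid genes 1 was called lower there, with differences of -0.59 for Tsc22d3, -0.31 for Nr3c1 and -0.09 for Fkbp5.

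**Figure D5:**
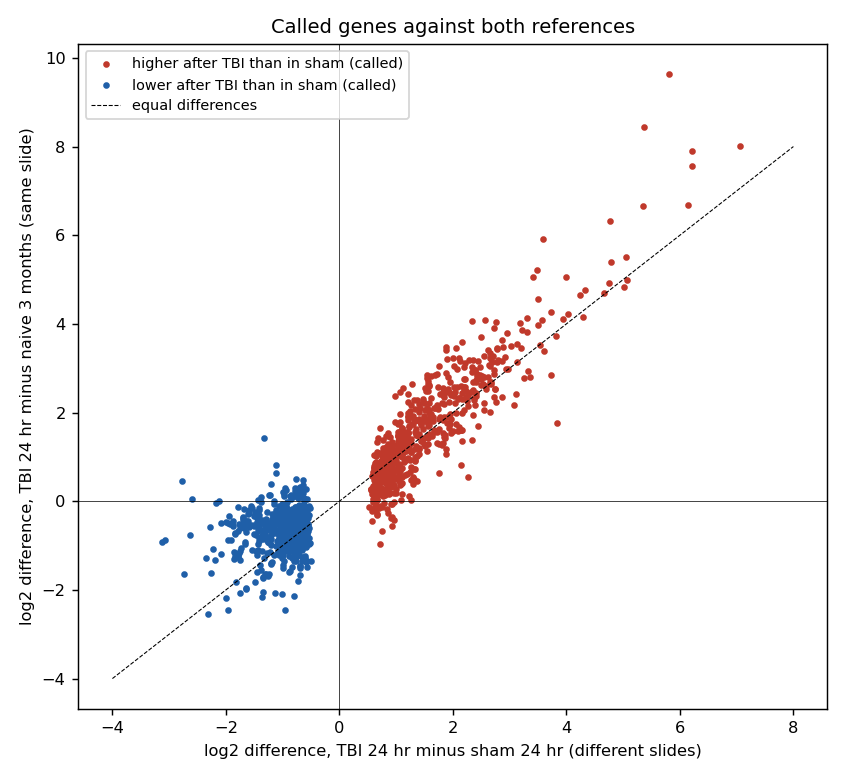
Log2 difference of TBI minus naive 3 months on the same slide (vertical axis) against TBI minus sham on different slides (horizontal axis) for the 674 genes called higher (red) and the 530 called lower (blue) against sham; the dashed line marks equal differences. Both axes share the 3 TBI arrays; red points have a median of 1.26 on the vertical axis and blue points of -0.60.

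Whether the hippocampal response differed from that of the cortex at 24 hr was tested as the difference between both TBI effects, over 13 arrays. Of 13249 probes on both array designs, 314 (2.37%) differed, 28 with the more positive and 286 with the more negative hippocampal effect. The count was 123 without sham replicate 1 and 106 without sham replicate 2 of the hippocampus, and 4 with the replicate number as a block. By gene, 0.199% were more positive and 1.66% more negative. Sst differed by -1.43 (SE 0.28, adjusted p = 0.0231), with a cortical effect of -0.05, and Gpr17 by -1.14 (SE 0.18, adjusted p = 0.00788), with a cortical effect of -0.13. Igtp also differed (adjusted p = 0.00518), with a cortical effect of 0.09. Igfbp2 differed by 2.02 (adjusted p = 0.0333), with a cortical effect of 0.04. Angptl2, an angiopoietin-like secreted protein, differed too (adjusted p = 0.00169), and it was below background in both hippocampal sham arrays and at least 4.36-fold higher in TBI there. None of the tested chemokine, proliferation, microglial or channel genes differed between the regions at this threshold. With so few calls over all genes, a count of 0 in lists of this size does not show equal effects. Of 29 reactive astrocyte genes 1 was more positive and 0 more negative, as were 1 and 0 of 29 interleukin, TNF and Toll-like receptor genes. Over the probes tested there, median hippocampal and cortical effects were 1.61 and 1.30 for chemokines and 1.56 and 1.12 for proliferation genes. They were 1.15 and 1.09 for microglial genes, 1.76 and 0.92 for reactive astrocyte genes and -0.39 and -0.10 for channel genes. Tissue and array design vary together in this test. In both regions sham and TBI arrays lay on different slides, 2 and 3 in the cortex and 1 and 5 in the hippocampus. An effect of the slide therefore cannot be told apart from a difference between the regions.

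For many probes the difference of TBI from sham was larger at 24 hr than in the hippocampus at 3 months. Sham and TBI arrays of 3 months shared slide 4, whereas those of 24 hr lay on slides 1 and 5. An effect of the slide on the 24 hr side therefore cannot be told apart from one of the interval. Of 16351 probes, 656 (4.01%) differed, 335 more positive and 321 more negative at 24 hr, against 147 in all without sham replicate 1 of 24 hr and 224 with the replicate number as a block, and by gene 2.51% were more positive and 0.889% more negative. Among proliferation genes 13 of 27 were more positive at 24 hr, and among reactive astrocyte genes 12 of 28, while 7 of 30 microglial, 6 of 17 chemokine and 6 of 27 interleukin, TNF and Toll-like receptor genes were. The median effect at 3 months was -0.03 for proliferation, 0.08 for reactive astrocyte, 0.14 for microglial and 0.09 for chemokine genes. Cdk1 differed by 3.13 (SE 0.66, adjusted p = 0.0201), with an effect of 0.07 at 3 months, and Tnfrsf12a by 3.47 (SE 0.40, adjusted p = 0.00164), with an effect of 0.06. Trh, which had an effect of 2.26 at 3 months, did not differ at this threshold (0.50, SE 1.83, adjusted p = 0.92).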

How the data were processed

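For the study, complementary RNA made from total RNA of rat hippocampus was hybridised to Agilent one-colour arrays. The arrays were read with Agilent Feature Extraction 11.5.1.1. The deposited scanner files give the processed signal of each spot, an intensity already corrected for background. A deposited table of the series holds the same intensity divided by a constant per array near the 75th percentile, with a lowest value of 0.01 in 4 of the 5 arrays, and served as an alternative. Spots of a probe were averaged, log2 values were centred on each array's median, and a probe was tested where all arrays of either group were well above background, with limma 3.58.1 in R 4.3.3, on 5 arrays, with Benjamini-Hochberg adjustment and a threshold of 0.05. A gene was read from its tested probe with the highest mean level. The fit was tested on simulated data. Members and the 35 gene lists were chosen with earlier results of these data known. Genes named in the text were the 15 largest rises and 15 largest falls, up to 4 called members with the largest differences per list, genes the study discusses, and the largest interaction differences, and further list members were added after their values were seen. The number of arrays limits the precision. Alternatives changed scaling, background correction, filter, arrays, block and prior. Normexp used the median signal, since a mean signal column was not analysed here. Promoters came from RefSeq (GRCr8). Some genes that met the naming rule are not reported here.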

Additional observations from a re-analysis of the deposited data

Results flagged for a closer look

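The difference between the hippocampal and the cortical TBI effect at 24 hr, tested by an interaction term in limma, passed for 314 probes, and that between 24 hr and 3 months in the hippocampus for 656. The largest named differences from the cortex were 3.11 for Angptl2, 2.37 for Col26a1, 2.23 for Ltbp1, 2.08 for Traf6 and 2.02 for Igfbp2 in the positive direction. In the negative direction they were -2.56 for Rnmt, -2.85 for Cox7c, -2.97 for Txnip, -3.11 for Ash1l and -3.49 for Brap. Angptl2 had levels of -2.16 and -2.21 in sham and of 1.33, 0.92 and 0.93 in TBI in the hippocampus. Col26a1, Ltbp1 and Traf6 did not pass the filter for the hippocampus alone. Angptl2 was below background in both hippocampal sham arrays, and Rnmt, Ash1l and Brap in all hippocampal TBI arrays, so these differences were not measured on both sides.

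Between 24 hr and 3 months the largest positive differences were 6.82 for Lcn2, 5.52 for Igsf7 l1, 5.43 for Ccl7, 5.34 for Slpi and 5.24 for Clec4a2. The largest negative ones were -2.75 for Ash1l, -2.82 for Aox1, -2.91 for Lrrc32, -3.45 for Brap and -5.87 for Atp7a. At 24 hr Igsf7 l1, Ccl7, Slpi and Clec4a2 were below background in both sham arrays, and Ash1l, Lrrc32 and Brap in all TBI arrays. Atp7a, a copper transporter, varied within groups, with levels of 1.09 and 0.91 in sham and of 1.21, -2.34 and -3.41 in TBI at 24 hr, and was not called there (adjusted p = 0.223).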

How the results depend on the processing

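The 113 called genes named by the rule kept their direction under each alternative in which they were tested except the reference on the TBI slide. With all 5 arrays above background, 68 of the named genes were tested. Much of this was fixed beforehand. In all called probes the TBI arrays lay on 1 side of both sham arrays, so that leaving out 1 array could not reverse a direction. Another filter or prior, or all 17 arrays in the fit, left the difference itself unchanged. The call was kept in all alternatives by 0 of the 113, since testing all 30367 probes without the filter gave 0 calls in limma in total, higher and lower. Without the filter 4564 probes had an unadjusted p under 0.05. Scaling to the 75th percentile, quantile normalization, the deposited table, an intensity trend, all 17 arrays of the design or a stricter filter gave 1931 to 2865 called probes. Normexp moved the higher calls to 2348. Leaving out 1 array gave 676 to 2307 called probes, 223 to 1176 higher and 391 to 1131 lower; the total was 676 without sham replicate 1, 745 without sham replicate 2, 1344 without TBI replicate 1 and 1185 without TBI replicate 2. Replicate numbers did not pair the arrays (correlations of deviations -0.21 and 0.02), and with the number as a block 724 probes were called, 334 higher and 390 lower, while the region and interval differences fell to 4 and 224. Of the 35 list counts 25 moved by over 1.5 times without sham replicate 1, 20 without sham replicate 2 and 21 under the block. A slide term could not be fitted, since the sham slide held 0 other arrays of this design. Against the naive arrays on the TBI slide, added after the data were seen, 6296 probes were called, 2446 higher and 3850 lower. The region difference ranged from 106 to 299 probes without 1 array, with the lowest value without sham replicate 2 and 123 without sham replicate 1. The interval difference was 1139 at the 75th percentile, 1306 with quantile normalization, 51 without the filter and 327 with every array above background, and ranged from 147 without sham replicate 1 of 24 hr to 1872 without sham replicate 3 of 3 months. Reversed values were Drd2, which ranged from -0.61 to 0.35 without 1 array and was at 0.0346 without TBI replicate 1, and, against naive, Bdnf at -0.0651, Cox7c at 0.0406, Gsta5 at 0.00552, Lef1 at -0.41 and Trim16, below background in all TBI arrays, at 0.46. The cause was not tested.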
